A study of Caenorhabditis elegans with 23 samples.

Results

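The *pals* genes of *C. elegans* encode proteins that share the ALS2CR12 signature. The family was taken as every gene whose WBcel235 name is *pals-* followed by a number, which gave 38 of 21982 gene entries in the count tables. All 38 are protein-coding, and all had transcripts in the tables (49 transcripts in all). The study asked how loss of *sid-1*, which encodes an importer of double-stranded RNA, changes gene expression in mixed-stage whole animals, from polyA+ RNA in 23 libraries of 3 sets. In the deletion set, *sid-1(jam113)*, a Cas9-made deletion of the whole coding sequence, was grown beside wild type (3 libraries each). In the nonsense set, named for its mutant, *sid-1(jam86)* and its parent *sid-1(jam80)* were grown beside wild type (3 libraries each). *sid-1(jam80)* is a Cas9-made nonsense mutant modelled on *qt9*, and its repair template added a missense and a nonsense change downstream. In *sid-1(jam86)* Cas9 restored the wild-type sequence, these changes included. The previously generated alleles (the older set) were *sid-1(qt9)*, a nonsense mutant, *sid-1(tm2700)*, a deletion, *sid-1(tm2700); tmIs1005[sid-1(+)]*, the deletion strain with a rescuing transgene array that also carries a *vps-45* mini gene (called the rescued strain here), and wild type, with 2 libraries each. By the labels the older set grew in liquid culture, where the paper's methods state plates, and the other sets grew on plates. Wild type was N2 throughout, and each mutant is 1 strain, so an effect of an allele cannot be told apart from other differences between isolates.

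Many *pals* genes are known to be switched on in the intestine when worms are infected with microsporidia or the Orsay virus, and they make up a large part of the transcriptional programme called the intracellular pathogen response. Other family members set the level of that response. *pals-22* keeps it off and its operon partner *pals-25* turns it on, and mutants of *pals-22* also silence transgenes and respond to RNAi more strongly. *pals-17* is a second repressor, whereas *pals-16* and *pals-20* act as activators that *pals-17* holds in check. *pals-5* serves as the standard reporter of the response.

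The family lies on 4 chromosomes, with 15 members on I, 14 on III, 2 on IV and 7 on V. Of the 38 genes, 33 sit in 6 groups of neighbours and 5 stand alone. The repressor and activator *pals-22* (III:132418-134401, plus strand) and *pals-25* (III:134494-137975, plus strand) are 92 bases apart, next to *pals-24* (III:120435-124690) and *pals-23* (III:124778-127971). The second regulatory group, with *pals-17* (III:1390450-1391852, minus strand), *pals-16* (III:1399970-1401401, plus strand) and *pals-20* (III:1386993-1388324, minus strand), holds 7 genes, including *pals-18* and *pals-19*, whose annotated exons overlap by 53 bases. The largest group, of 14 genes on chromosome I, includes *pals-5*. *pals-3* and *pals-12* share 1185 exonic bases, so how their reads were divided is uncertain. *pals-12* had 3, 6, 5 and 8 reads in replicate 1 of *sid-1(qt9)*, *sid-1(tm2700)*, the rescued strain and wild type of the older set, and 0 in replicate 2 of each and in every plate library. *pals-20*, *pals-32* and *pals-37* overlap exons of genes on the opposite strand, which the library kit of the previously generated alleles did not tell apart.

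Depth and the labels bear on all results. The plate libraries (deletion set, and nonsense set) held 35320382 to 79287591 estimated counts, and those of the previously generated alleles 22147631 to 26396892. A level of 0.1 CPM (counts scaled to library size), the minimum for testing, was 3.53 to 7.93 reads in the plate sets and 2.21 to 2.64 reads in the older set. *sid-1* stood at 1.19 to 1.42 CPM in *sid-1(jam113)* and 49.1 to 54.2 CPM in its wild type. It stood at 27.8 to 34.1 CPM in *sid-1(jam86)*, at most 18.6 CPM in *sid-1(jam80)* and 32.7 to 35.5 CPM in their wild type. In the older set it stood at 14.7 to 18.8 CPM in *sid-1(qt9)*, 21.4 to 23.6 CPM in *sid-1(tm2700)*, 44.0 to 52.0 CPM in the rescued strain and 31.2 to 32.5 CPM in wild type. On the log2 scale *sid-1* fell by 5.33 in *sid-1(jam113)*, by 1.0 in *sid-1(jam80)* and by 0.94 in *sid-1(qt9)*, each against its wild type, and by 1.1 in *sid-1(tm2700)* against the rescued strain, while *sid-1(jam86)* did not pass the test against wild type (log2 fold change -0.15). Markers of intestine, epidermis, germline and yolk were detected in every library, and 0 of the 5 germline markers passed in any comparison that involves a *sid-1* strain. In the deletion set wild-type replicate 2 was often the highest of its group for *pals* genes, and *sid-1(jam113)* replicate 1 often the lowest of its group. Replicate 3 of *sid-1(jam113)* differed from replicates 1 and 2 for some members. Calls that change when 1 of these libraries is left out are given with and without it.

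The family was expressed at low levels in every strain. TPM, a share of the library that adjusts for transcript length and so allows genes to be compared, was highest on average for *pals-24*, *pals-23*, *pals-18*, *pals-22* and *pals-17*. In the deletion set *pals-24* led with a mean of 6.05 TPM, and *pals-23* led in the nonsense set with 4.07 TPM and in the previously generated alleles with 8.78 TPM. Only 9 members averaged at least 1 TPM in either plate set, against 14 in the previously generated alleles. At the other end, 7 members had under 10 reads in every library of the older set, 19 did in the nonsense set and 15 in the deletion set.

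The summed level of the 38 genes was 22.2 to 48.1 TPM in the deletion set, 19.9 to 26.3 TPM in the nonsense set and 70.6 to 83.9 TPM in the previously generated alleles. The 4 genes around *pals-22* made up 49.6% to 57.7%, 53.0% to 57.3% and 28.9% to 36.4% of that sum in the same order of sets. The 7 genes around *pals-17* added 24% to 29.8%, 26.6% to 31.5% and 27.5% to 34.7%. The 14 genes on chromosome I, the reporter gene *pals-5* among them, contributed 2.0% to 2.86%, 2.6% to 3.9% and 3.95% to 7.74%. The neighbourhoods of the regulators on chromosome III thus carried most of the family's TPM in every library.

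**Figure D1:**
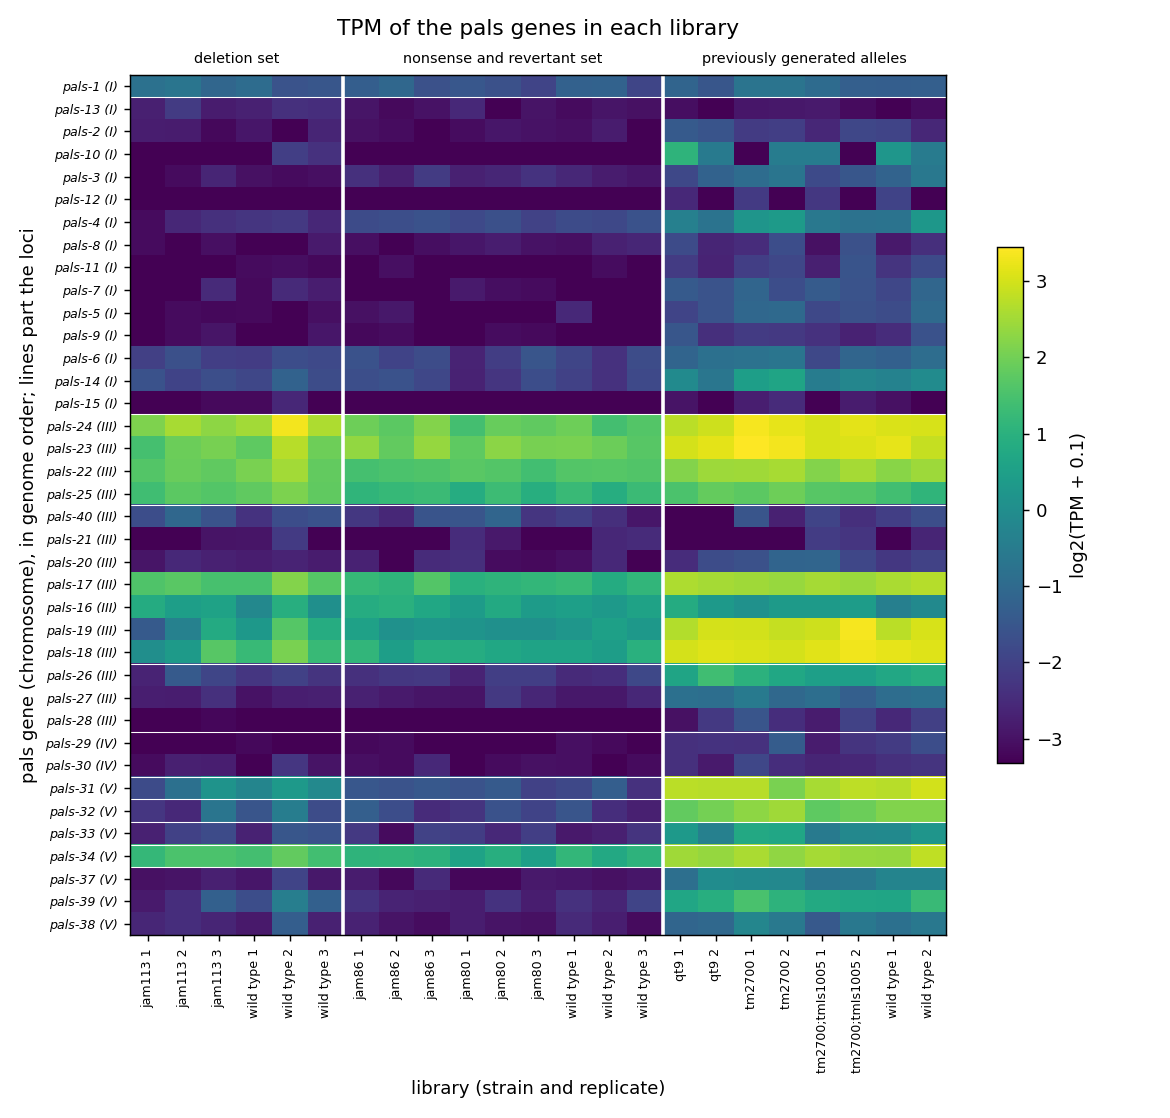
Level of each *pals* gene (rows, in genome order, with the chromosome in parentheses) in each of the 23 libraries (columns), as log2(TPM + 0.1) by colour. The 3 sets are parted by thick white lines, and *pals-22*, *pals-23*, *pals-24*, *pals-17* and *pals-18* on chromosome III are among the brighter rows in every library, while most genes of chromosome I are near 0 in the plate sets.

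**Figure D2:**
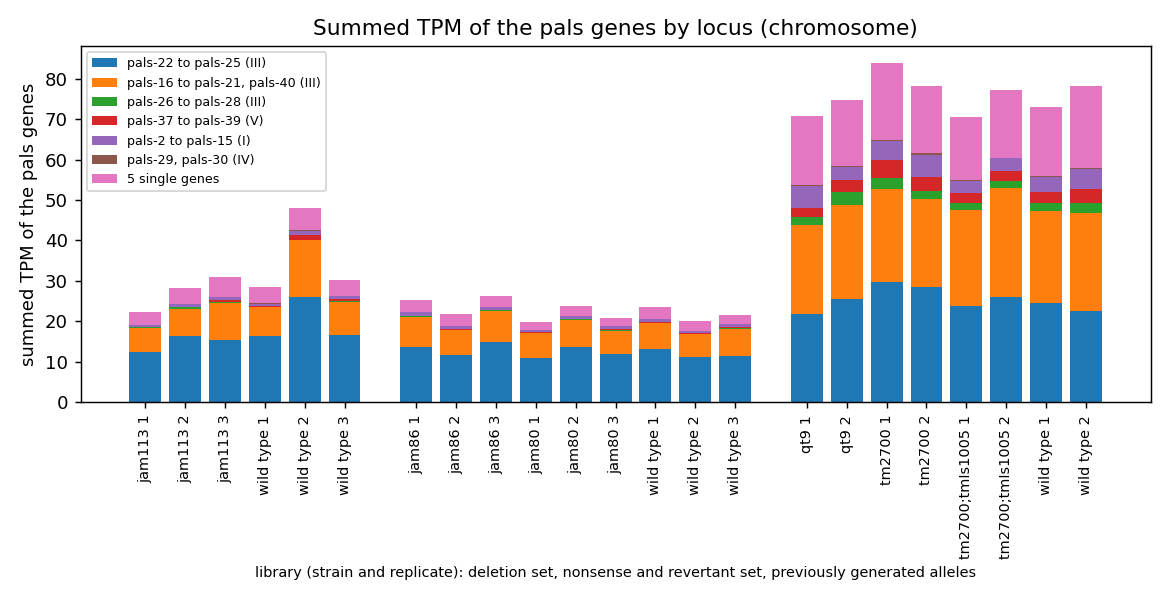
Summed TPM of the 38 *pals* genes in each library, stacked by locus. Bars of the previously generated alleles reach 70.6 to 83.9 TPM, and in the deletion set wild-type replicate 2 stands out at 48.1 TPM, above every other plate library.

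In animals without the *sid-1* coding sequence, *sid-1(jam113)*, no *pals* gene passed the test against wild type. The summed level was 20.8 to 30.5 CPM (25.7 ± 4.85, SD, n = 3) in *sid-1(jam113)* and 27.4 to 42.3 CPM (32.6 ± 8.43, SD, n = 3) in wild type, and the ranges overlapped. Of the 38 genes 20 could be tested, and 0 passed an adjusted p of 0.05 (quasi-likelihood test in edgeR, Benjamini-Hochberg adjusted over all genes tested), where 0.197% of all genes tested passed. At an unadjusted p under 0.05 there was 1 member, against 12.7% of all genes, and limma voom and DESeq2 also called 0. The tested members leaned lower, with 16 negative and 4 positive log2 fold changes and a median of -0.29, where the median of all genes was 0. Levels did not overlap between the groups for 2 of the 20, against 18% of all genes tested.

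*pals-24*, the most abundant member of this set and a neighbour of *pals-22*, had the smallest p. It stood at 3.86, 5.03 and 4.5 CPM in *sid-1(jam113)*, against 5.16, 8.19 and 5.27 CPM in wild type. The groups did not overlap, but replicate 2 of wild type was far above the other wild-type libraries. The log2 fold change was -0.47 ± 0.20 (SE) and did not pass (adjusted p = 0.385, edgeR).

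The repressor *pals-22* had 2.65, 3.08 and 3.08 CPM in *sid-1(jam113)*, against 3.76, 4.52 and 2.99 CPM in wild type. Its activating partner *pals-25* had 2.8, 3.52 and 3.52 CPM in *sid-1(jam113)*, against 3.84, 4.33 and 3.71 CPM in wild type. Wild type was the higher group for both genes, and only *pals-22* overlapped. Neither passed the test (log2 fold change -0.35 ± 0.18 for *pals-22* and -0.27 ± 0.14 for *pals-25*, SE). The ratio of *pals-25* to *pals-22* TPM averaged 0.88 ± 0.038 in *sid-1(jam113)* and 0.848 ± 0.119 in wild type (SD, n = 3 each), so the balance of activator and repressor transcripts differed by less than the spread between wild-type libraries.

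The second repressor *pals-17* had 2.5, 2.61 and 2.38 CPM in *sid-1(jam113)*, against 2.36, 3.51 and 2.57 CPM in wild type. The activator *pals-16* had 1.67, 1.24 and 1.44 CPM in *sid-1(jam113)*, against 0.805, 1.63 and 0.911 CPM in wild type. Both genes overlapped between the groups, with log2 fold changes of -0.17 ± 0.18 and 0.39 ± 0.28 (SE). *pals-20* and *pals-5* were too low to test, with at most 5 and 2 reads in any library of this set.

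The largest tested change was that of *pals-39*, one of 3 neighbours on chromosome V, and its size depended on single libraries. With any 1 library left out its log2 fold change ran from -2.52 to -0.68. *pals-39* had 0.0576, 0.118 and 0.484 CPM in *sid-1(jam113)* (3, 7 and 36 reads), against 0.297, 0.848 and 0.455 CPM in wild type. *pals-18* had 0.864, 1.1 and 3.08 CPM in *sid-1(jam113)*, against 2.16, 3.6 and 2.07 CPM in wild type. *pals-19* had 0.269, 0.626 and 1.67 CPM in *sid-1(jam113)*, against 1.09, 2.74 and 1.62 CPM in wild type. In each of these genes replicates 1 and 2 of *sid-1(jam113)* lay below every wild-type library and replicate 3 lay among the wild types. The log2 fold changes were -1.15 ± 0.66 for *pals-39*, -0.60 ± 0.45 for *pals-18* and -1.03 ± 0.57 for *pals-19* (SE), and none passed.

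Without *sid-1(jam113)* replicate 3, all 3 genes fell past the threshold of edgeR's quasi-likelihood test. The log2 fold changes were then -2.52 for *pals-39* (adjusted p = 0.0363), -1.39 for *pals-18* (adjusted p = 0.0206) and -1.98 for *pals-19* (adjusted p = 0.0329). Leaving out that library raised the calls among all genes as well, to 8.23%, so the 3 members stood beside a much longer list. Wild-type replicate 2 had the highest level of the 3 wild types for 17 of the 20 tested members, where it was highest for 39.2% of all genes tested. Within *sid-1(jam113)*, replicate 1 was the lowest for 14 of the 20 (37.4% of all genes) and replicate 3 the highest for 10 (39.3% of all genes). Over all genes replicate 1 lay farthest from the others, with a chi-square per degree of freedom of 69.65 against replicate 2 and 124.1 against replicate 3, where replicates 2 and 3 gave 45.13. Without wild-type replicate 2, 0 members passed and the median of the tested members was 0.001.

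Sums of cell type markers were compared between the same groups. Intestine markers summed to 531 to 576 CPM in *sid-1(jam113)* and 562 to 639 CPM in wild type, and epidermis markers to 1040 to 1250 CPM in *sid-1(jam113)* and 707 to 974 CPM in wild type, and only the epidermis sums did not overlap. Both sums joined markers that went opposite ways. Most of the epidermis sum was the cuticle collagen gene *col-19*, at 1110, 901 and 817 CPM in *sid-1(jam113)*, against 688, 545 and 763 CPM in wild type. The log2 fold changes were 0.50 for *col-19*, 0.24 for *sqt-3*, 0.16 for *bli-1*, -0.04 for *dpy-7* and -0.32 for *rol-6*. Intestine markers were split as well. The intestinal actin gene *act-5* had 267, 248 and 181 CPM in *sid-1(jam113)*, against 176, 148 and 209 CPM in wild type. The intermediate filament gene *ifb-2* had 104, 111 and 148 CPM in *sid-1(jam113)*, against 152, 160 and 160 CPM in wild type. The proton pump gene *vha-6* had 152, 145 and 208 CPM in *sid-1(jam113)*, against 208, 215 and 235 CPM in wild type. For *ifb-2*, *vha-6*, the esterase gene *ges-1* and the transcription factor gene *elt-2*, replicates 1 and 2 of *sid-1(jam113)* lay below every wild-type library and replicate 3 was nearer to wild type, the same libraries as for *pals-18*, *pals-19* and *pals-39*. For *act-5* replicates 1 and 2 lay above every wild-type library. None of the 5 intestine or 5 epidermis markers passed the test with all libraries kept, and their part in the levels of the *pals* genes was not tested. In bulk samples fewer cells of a type and less RNA per cell cannot be told apart.

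**Figure D3:**
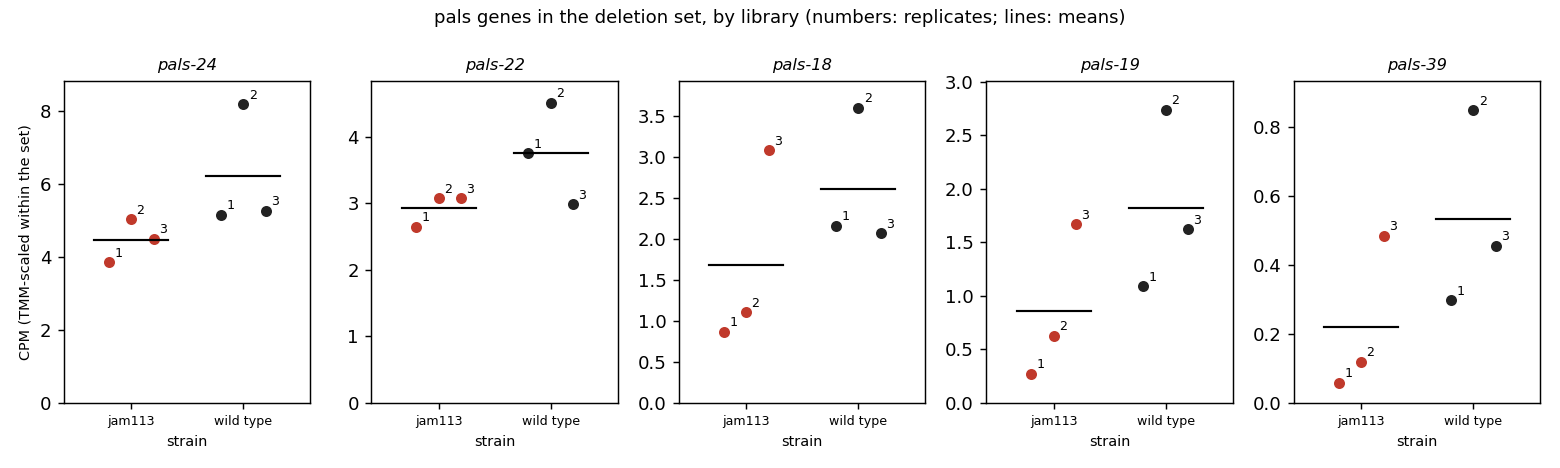
CPM of 5 *pals* genes in the libraries of the deletion set, *sid-1(jam113)* left and wild type right, with points numbered by replicate and lines at the mean. Replicate 3 of *sid-1(jam113)* lies apart from replicates 1 and 2 for *pals-18*, *pals-19* and *pals-39*, and wild-type replicate 2 is the highest point in every panel.

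No *pals* gene was called in the nonsense mutant *sid-1(jam80)*, for which 18 members could be tested. Summed levels were 19.8 to 22.5 CPM (20.9 ± 1.4, SD, n = 3) in *sid-1(jam80)* and 19.5 to 22.6 CPM (21.2 ± 1.57, SD, n = 3) in wild type. Of these 18 members, 0 passed an adjusted p of 0.05 by edgeR, limma voom or DESeq2, where 0.0665% of all genes passed edgeR's test. No member had an unadjusted p under 0.05 (0 of 18), against 6.28% of all genes. The median log2 fold change of the members was 0.01 and that of all genes 0.

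*pals-22* stood at 2.99, 2.66 and 2.33 CPM in *sid-1(jam80)*, against 2.73, 2.82 and 2.72 CPM in wild type. *pals-25* stood at 1.98, 2.64 and 2.04 CPM in *sid-1(jam80)*, against 2.6, 2.02 and 2.66 CPM in wild type. The levels of both genes overlapped between the groups, and their log2 fold changes were -0.06 ± 0.13 and -0.12 ± 0.16 (SE). *pals-17* and *pals-16* changed by 0.01 ± 0.16 and 0.06 ± 0.18 (SE) on the log2 scale.

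The largest change against wild type was that of *pals-33*, a gene alone on chromosome V (V:3673380-3676632, plus strand), and it rested on few reads. *pals-33* had 9, 5 and 12 reads in *sid-1(jam80)*, against 2, 4 and 7 reads in wild type. The groups overlapped, and the log2 fold change of 0.82 ± 0.52 (SE) did not pass (adjusted p = 0.814, edgeR).

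The deletion and the nonsense mutants were set against each other by testing the difference between their changes, each relative to its own wild type. Among 22 members tested, 0 passed by edgeR's quasi-likelihood test, limma voom or DESeq2, where 0.25% of all genes passed edgeR's test. At an unadjusted p under 0.05 there were 0 members, against 10.8% of all genes. The median difference over the members was -0.35, where that over all genes was 0.006. *pals-33* had the largest difference, -1.13 ± 0.85 (SE). Without *sid-1(jam113)* replicate 3, *pals-18* and *pals-19* passed, when 7.8% of all genes did. Intervals were wide for this difference, since the standard errors of the members ran from 0.22 to 1.3 on the log2 scale.

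The revertant *sid-1(jam86)* showed 0 changed members as well. Its summed levels were 21.4 to 24.9 CPM (23.7 ± 1.99, SD, n = 3), against 20.9 ± 1.4 CPM in *sid-1(jam80)* and 21.2 ± 1.57 CPM in wild type. Relative to wild type, 0 of 18 tested members passed by edgeR's quasi-likelihood test, limma voom or DESeq2, where 3.28% of all genes passed edgeR's test. At an unadjusted p under 0.05 there was 1 member, against 21.1% of all genes. The members' median log2 fold change was 0.21 with 14 positive and 4 negative values, where that of all genes was 0.022. Levels did not overlap between these groups for 2 of the 18, against 26.6% of all genes tested.

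Relative to *sid-1(jam80)*, 0 of 19 tested members passed in *sid-1(jam86)* by the same 3 tools, where 1.25% of all genes passed edgeR's test, and 1 member had an unadjusted p under 0.05, against 18.8% of all genes. The median was 0.23 over the members and 0.025 over all genes. The comparisons of *sid-1(jam86)* share its 3 libraries.

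*pals-16*, the activator held in check by *pals-17*, had the smallest p against wild type. Its levels were 1.75, 1.91 and 1.51 CPM in *sid-1(jam86)*, 1.25, 1.6 and 1.23 CPM in *sid-1(jam80)* and 1.31, 1.2 and 1.41 CPM in wild type. All 3 libraries of *sid-1(jam86)* lay above the wild type, whereas they overlapped *sid-1(jam80)*. The log2 fold change against wild type was 0.40 ± 0.17 (SE) and did not pass (adjusted p = 0.181, edgeR).

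*pals-22* stood at 2.43, 2.54 and 2.59 CPM in *sid-1(jam86)*, below each wild-type library by a small margin, with a log2 fold change of -0.13 ± 0.13 (SE). *pals-25* stood at 2.33, 2.54 and 2.57 CPM and overlapped the wild type. The ratio of *pals-25* to *pals-22* TPM averaged 0.792 ± 0.016 in *sid-1(jam86)*, 0.679 ± 0.134 in *sid-1(jam80)* and 0.709 ± 0.117 in wild type (SD, n = 3 each). The ratios of the 3 strains overlapped.

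The largest changes of the revertant were again those of genes with few reads. *pals-32*, alone on chromosome V, had 28, 12 and 4 reads in *sid-1(jam86)*, against 11, 6 and 3 reads in wild type (log2 fold change 0.86 ± 0.57, SE). *pals-40* had 5, 2 and 6 reads in *sid-1(jam86)*, against 7, 11 and 4 reads in *sid-1(jam80)* (log2 fold change -0.77 ± 0.59, SE). Both overlapped between the groups and neither passed.

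The revertant's libraries differed from wild type in other respects. All 5 heat stress genes listed, *hsp-16.2*, *hsp-16.41*, *hsp-16.48*, *hsp-70* and *F44E5.4*, fell, with a median log2 fold change of -1.11, and 12 of 30 tested major sperm protein genes and the cuticle collagen gene *sqt-3* rose. Heat stress genes summed to 187 to 269 CPM in *sid-1(jam86)* and 384 to 628 CPM in wild type. Their part in the levels of the *pals* genes was not tested.

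**Figure D4:**
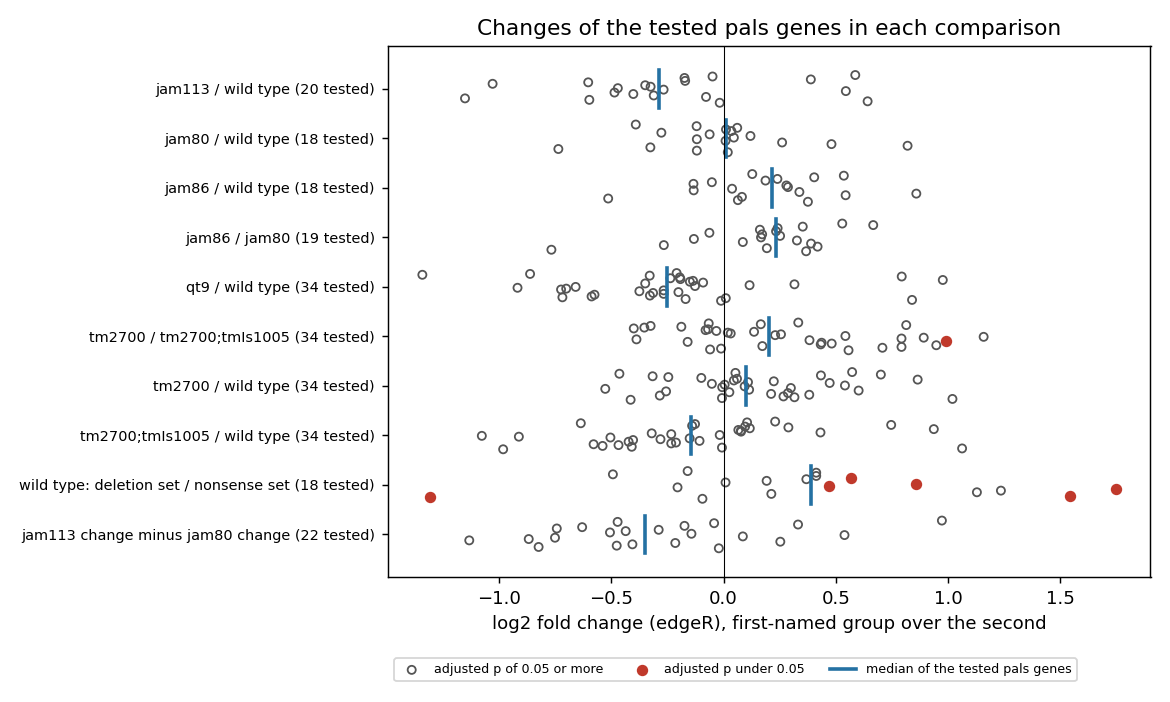
Log2 fold change (edgeR) of each tested *pals* gene in each comparison, the first-named group over the second, with filled points where the adjusted p was under 0.05 and a blue line at the median of the members. Filled points occur for *sid-1(tm2700)* over the rescued strain (1 gene) and between the wild types of the plate sets (6 genes); *pals-40* in *sid-1(qt9)* is left out because it had 0 reads there.

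The previously generated nonsense mutant *sid-1(qt9)*, which *sid-1(jam80)* was made to mimic, had no changed member by edgeR's quasi-likelihood test. Its summed level was 96.1 and 106 CPM (101 ± 7.0, SD, n = 2), against 109 and 121 CPM (115 ± 8.49, SD, n = 2) in wild type. Both libraries of the mutant lay below both of the wild type. With the higher family level of this set 34 members could be tested, of which 0 passed by edgeR, limma voom or DESeq2, where 1.84% of all genes passed edgeR's test. At an unadjusted p under 0.05 there were 2 members, against 15.2% of all genes. The median log2 fold change was -0.25, with 28 negative and 6 positive values, where that of all genes was -0.023. With 2 libraries per group, 14 of the 34 did not overlap between the groups, against 47.1% of all genes tested.

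*pals-16* had the largest positive log2 fold change among the regulators. It stood at 2.4 and 1.65 CPM in *sid-1(qt9)*, against 1.02 and 1.29 CPM in wild type. Both libraries of the mutant lay above both of the wild type, but the log2 fold change of 0.79 ± 0.31 (SE) did not pass (adjusted p = 0.211, edgeR). Without *sid-1(qt9)* replicate 2 it was 1.06 (adjusted p = 0.0454, edgeR), and 1598 genes in all had an adjusted p under 0.05. In this set a fit without 1 library sets a single library against 2, so the spread comes from the other group alone and the lone library is assumed to vary like it. Such fits are given as a description and show neither that a call is stable nor that it is not.

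*pals-22* stood at 5.71 and 6.78 CPM in *sid-1(qt9)*, against 6.32 and 7.53 CPM in wild type. *pals-25* stood at 4.53 and 5.63 CPM in *sid-1(qt9)*, against 4.43 and 3.70 CPM in wild type. *pals-17* stood at 7.43 and 6.93 CPM in *sid-1(qt9)*, against 7.81 and 8.55 CPM in wild type. *pals-25* and *pals-17* did not overlap between the groups. The log2 fold changes were -0.15 ± 0.19, 0.32 ± 0.22 and -0.20 ± 0.18 (SE) for *pals-22*, *pals-25* and *pals-17*, and none passed the test.

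The reporter gene *pals-5* was low, at 6 and 10 reads in *sid-1(qt9)*, against 9 and 17 reads in wild type. *pals-20*, the other activator, had 3.3 and 9.2 estimated reads in *sid-1(qt9)*, against 5.6 and 6.8 in wild type. *pals-40* had 0 reads in both libraries of *sid-1(qt9)* and 3 and 4 in wild type, too few for a fold change. Without *pals-40* the median of the remaining 33 members was -0.24. Beside these values, the yolk genes *vit-3*, *vit-5* and *vit-6* and the cuticle collagen gene *sqt-3* rose in *sid-1(qt9)*, and their part in the *pals* levels was not tested.

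In *sid-1(tm2700)*, the comparison that holds the allele fixed and adds *sid-1* from an array gave the only *pals* gene called in a *sid-1* comparison with all libraries kept. The paper describes this transgene as overexpressing *sid-1(+)*. *sid-1* itself was higher in the rescued strain than in wild type (log2 fold change 0.59, adjusted p = 0.0022, edgeR). *pals-33* was higher in *sid-1(tm2700)* than in the rescued strain. It stood at 3.32 and 3.15 CPM in *sid-1(tm2700)* (88 and 75 reads), against 1.33 and 1.88 CPM in the rescued strain (29 and 49 reads). Both mutant libraries lay well above both rescued ones. The log2 fold change was 0.99 ± 0.23 (SE), which passed edgeR's quasi-likelihood test (adjusted p = 0.0129).

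This was 1 of 34 members tested (1 higher and 0 lower), where 2.07% of all genes passed and 1.38% passed as higher. Before adjustment, 10 members had p under 0.05, against 14.1% of all genes. The median log2 fold change was 0.20, with 22 positive and 12 negative values, where that of all genes was -0.003. Levels did not overlap between the strains for 18 of the 34, against 43.6% of all genes tested. Limma voom also called *pals-33* alone and DESeq2 called 0 members. DESeq2 gave *pals-33* no adjusted p. With counts rebuilt from TPM and length the call was lost (adjusted p = 0.0503, edgeR). With any 1 library left out the log2 fold change stayed between 0.78 and 1.28. The adjusted p was 0.105 without *sid-1(tm2700)* replicate 1 and 0.0849 without replicate 2 (edgeR), where only the 2 libraries of the rescued strain gave the spread.

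The wild-type mean lay between these strains for *pals-33*, with libraries at 1.88 and 2.41 CPM, of which the lower equalled the higher rescued library. Against wild type, the log2 fold change was 0.60 ± 0.21 (SE) in *sid-1(tm2700)* (adjusted p = 0.277, edgeR) and -0.40 ± 0.28 (SE) in the rescued strain (adjusted p = 0.55, edgeR). *sid-1(qt9)* had 2.4 and 1.38 CPM and overlapped wild type. The higher level of *pals-33* was thus called against the rescued strain and not against wild type, and the difference between these changes was not tested.

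A pair of genes from the group on chromosome I came next. *pals-4* stood at 2.0 and 2.23 CPM in *sid-1(tm2700)*, against 1.14 and 1.03 CPM in the rescued strain, with a log2 fold change of 0.95 ± 0.27 (SE, adjusted p = 0.0518, edgeR). *pals-14* stood at 2.07 and 2.35 CPM in *sid-1(tm2700)*, against 1.1 and 1.38 CPM in the rescued strain, with a log2 fold change of 0.81 ± 0.26 (SE, adjusted p = 0.0993, edgeR). Neither gene overlapped between these strains, but *pals-4* spanned 1.02 to 2.27 CPM in the wild-type libraries alone. These genes were named after their values were seen. *pals-4* passed when no filter on low counts was applied (adjusted p = 0.0198, edgeR).

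Leaving out replicate 1 of the rescued strain, so that only *sid-1(tm2700)* gave the spread, put 4 members under the threshold, *pals-33*, *pals-4*, *pals-18* and *pals-19*, among 1532 genes in all. *pals-18* stood at 11.2 and 10.8 CPM in *sid-1(tm2700)*, against 12.9 and 15 CPM in the rescued strain, and *pals-19* at 10.9 and 9.87 CPM, against 11.4 and 15.7 CPM. Their log2 fold changes were -0.35 ± 0.14 and -0.40 ± 0.15 (SE) with all libraries.

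No regulator was called between these strains. *pals-22* stood at 6.9 and 7.35 CPM in *sid-1(tm2700)*, against 6.22 and 8.2 CPM in the rescued strain. *pals-25* stood at 5.24 and 6.09 CPM in *sid-1(tm2700)*, against 5.58 and 5.44 CPM in the rescued strain. Their log2 fold changes were -0.03 ± 0.16 and 0.03 ± 0.17 (SE), and those of *pals-17* and *pals-16* were -0.19 ± 0.16 and -0.33 ± 0.25 (SE). *pals-5* had 17 and 16 reads in *sid-1(tm2700)*, against 7 and 11 reads in the rescued strain (log2 fold change 0.79 ± 0.45, SE). The largest change was that of *pals-29*, with 5 and 14 reads in *sid-1(tm2700)* and 2 and 6 reads in the rescued strain (log2 fold change 1.16 ± 0.68, SE).

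Among the 12 other genes listed for the intracellular pathogen response, 11 were tested in this comparison and 1 passed. *eol-1*, a worm relative of the mammalian decapping enzyme DXO, stood at 3.69 and 3.32 CPM in *sid-1(tm2700)*, against 1.51 and 1.76 CPM in the rescued strain. The log2 fold change was 1.09 ± 0.22 (SE, adjusted p = 0.00341, edgeR). As for *pals-33*, the wild-type mean lay between them, with libraries at 2.31 and 3.47 CPM, and *sid-1(tm2700)* overlapped wild type. The listed genes had a median log2 fold change of 0.26, and their summed levels, 112 to 123 CPM in *sid-1(tm2700)* and 113 to 127 CPM in the rescued strain, overlapped.

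Cuticle and stress genes differed between the same strains. The cuticle genes *rol-6* and *bli-1* rose by 0.57 and 0.99 on the log2 scale in *sid-1(tm2700)* against the rescued strain, and *hsp-16.41*, a small heat shock gene, fell by 2.21. Epidermis markers summed to 856 to 864 CPM in *sid-1(tm2700)* and 734 to 848 CPM in the rescued strain. None of the 5 intestine markers passed, with sums of 946 to 1100 CPM in *sid-1(tm2700)* and 939 to 986 CPM in the rescued strain. Their part in the levels of *pals-33* and *eol-1* was not tested.

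**Figure D5:**
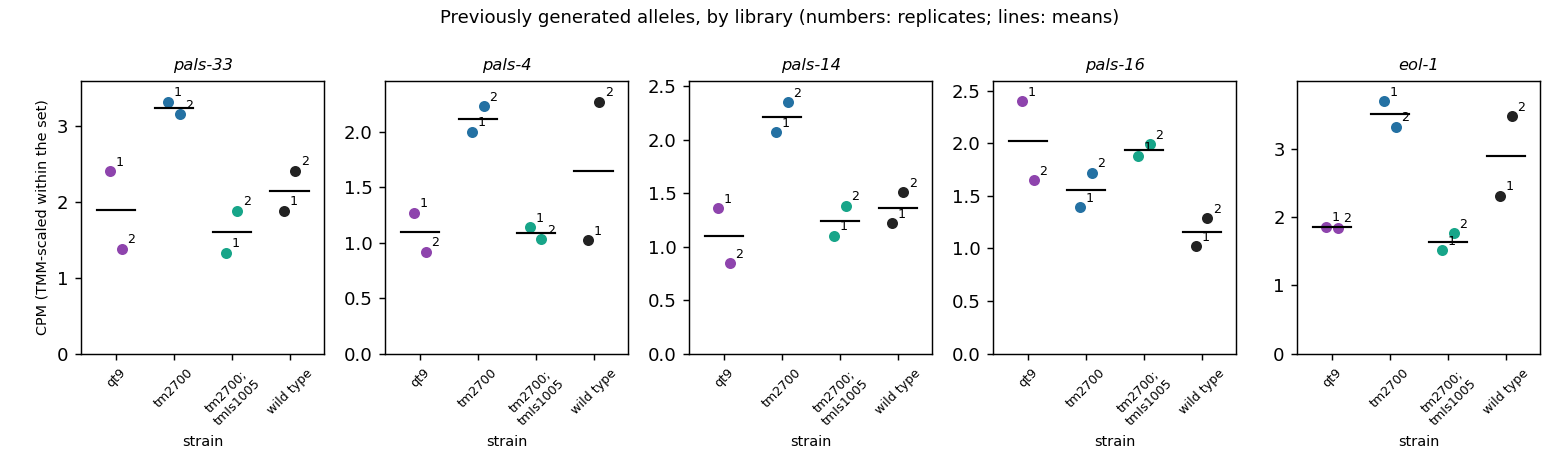
CPM of *pals-33*, *pals-4*, *pals-14*, *pals-16* and *eol-1* in the previously generated alleles, with points numbered by replicate and lines at the mean of 2 libraries. *sid-1(tm2700)* lies above the rescued strain for *pals-33*, *pals-4*, *pals-14* and *eol-1*, and the wild-type libraries reach into its range for *pals-4* and *eol-1*.

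Against wild type, *sid-1(tm2700)* had 0 called members of 34 by edgeR's quasi-likelihood test, limma voom or DESeq2, where 1.11% of all genes passed edgeR's test. The summed levels were 114 and 121 CPM in *sid-1(tm2700)* and 109 and 121 CPM in wild type. Before adjustment, 5 members had p under 0.05, against 10.6% of all genes, and the median was 0.10 over the members and 0.004 over all genes. Levels did not overlap for 12 of the 34, against 39.5% of all genes tested. *pals-25* was at 5.24 and 6.09 CPM in *sid-1(tm2700)*, against 4.43 and 3.70 CPM in wild type, without overlap (log2 fold change 0.47 ± 0.17, SE, adjusted p = 0.308, edgeR). *pals-17* was at 6.71 and 6.38 CPM in *sid-1(tm2700)*, against 7.81 and 8.55 CPM in wild type, also without overlap (log2 fold change -0.32 ± 0.14, SE, adjusted p = 0.444, edgeR).

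The largest change in that comparison was that of *pals-8*, with 4 and 9 reads in *sid-1(tm2700)* and 2 and 4 reads in wild type (log2 fold change 1.02 ± 0.75, SE). *pals-31*, alone on chromosome V, stood at 5.65 and 3.69 CPM in *sid-1(tm2700)*, against 6.08 and 7.53 CPM in wild type (log2 fold change -0.53 ± 0.21, SE). Leaving out *sid-1(tm2700)* replicate 1 or wild-type replicate 1 moved the result of *pals-31*, and leaving out wild-type replicate 2 moved that of *pals-4*. Each such fit left 1 library in a group and took the spread from the group that kept 2 libraries. These fits are therefore not read as calls.

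The rescued strain against wild type likewise had 0 called members of 34 by edgeR's quasi-likelihood test, limma voom or DESeq2, where 3.54% of all genes passed edgeR's test. The summed levels were 107 and 121 CPM in the rescued strain and 109 and 121 CPM in wild type. Before adjustment, 3 members had p under 0.05, against 14.8% of all genes, and the median was -0.15 over the members and -0.004 over all genes. Levels did not overlap for 12 of the 34, against 44.4% of all genes tested. *pals-16* stood at 1.88 and 1.99 CPM in the rescued strain, against 1.02 and 1.29 CPM in wild type, without overlap (log2 fold change 0.75 ± 0.30, SE, adjusted p = 0.191, edgeR). *pals-29* had the largest change, with 2 and 6 reads in the rescued strain and 7 and 10 reads in wild type (log2 fold change -1.08 ± 0.67, SE). In this comparison *rol-6* and *bli-1* fell and the yolk genes *vit-3* and *vit-4* rose. The 3 comparisons among *sid-1(tm2700)*, the rescued strain and wild type share libraries, as do those of *sid-1(qt9)* and *sid-1(tm2700)* with wild type.

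The regulators of the response outside the family, and its other targets, were tested in the same fits. *drh-1*, which senses viral RNA, *zip-1*, a transcription factor of the response, and *pnp-1*, *lin-35* and *sta-1*, which restrain it, were tested in all 9 comparisons that involve a *sid-1* strain, and 0 of the 5 passed in any of them. Of the 12 other response genes, 7 to 11 were tested per comparison and *eol-1* was the 1 gene called, in the comparison given above. Their median log2 fold change ranged from -0.27 to 0.26 over the 9 comparisons. Both sums were lower without overlap in *sid-1(jam113)* and *sid-1(qt9)* against wild type. The 5 regulators summed to 279 to 304 CPM in *sid-1(jam113)* and 331 to 360 CPM in wild type, and the other response genes to 46.0 to 50.5 CPM in *sid-1(jam113)* and 51.6 to 56.9 CPM in wild type. In the older set the regulators summed to 402 to 435 CPM in *sid-1(qt9)* and 446 to 469 CPM in wild type, and the other response genes to 94.8 to 98.3 CPM in *sid-1(qt9)* and 105 to 117 CPM in wild type. The regulators alone were also lower without overlap in *sid-1(tm2700)*, at 405 to 420 CPM, against 429 to 446 CPM in the rescued strain and 446 to 469 CPM in wild type. The sums overlapped in the other comparisons, apart from the regulators of the rescued strain against wild type. These were lower without overlap by a small margin, at 429.1 and 445.9 CPM in the rescued strain, against 468.7 and 446.5 CPM in wild type. These sums were not tested, and the comparisons of the older set share libraries. Levels of single genes did not overlap for 18% of all genes tested in *sid-1(jam113)* against wild type. In the comparisons of the older set this share was 39.5% to 47.1%. The members of the regulator sum did not move together. In *sid-1(jam113)* the log2 fold changes of *drh-1*, *zip-1* and *lin-35* were 0.02, 0.03 and 0.02, and those of *sta-1* and *pnp-1* -0.16 and -0.80. In *sid-1(qt9)* those of *drh-1* and *lin-35* were 0.21 and 0.14, and the others were negative. *pnp-1* was the largest part of the regulator sum in the older wild type, at 292 and 269 CPM. *skr-3* was the largest part of the other sum, at 54.2 and 59.5 CPM in the older wild type.

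*pnp-1*, which encodes a purine nucleoside phosphorylase, stood at 55.5, 61 and 108 CPM in *sid-1(jam113)*, against 121, 136 and 134 CPM in wild type. The groups did not overlap, and replicate 3 was again the *sid-1(jam113)* library nearest to wild type. The log2 fold change was -0.80 ± 0.22 (SE) and did not pass (adjusted p = 0.203, edgeR). In *sid-1(qt9)* *pnp-1* stood at 226 and 250 CPM, against 292 and 269 CPM in wild type, also without overlap (log2 fold change -0.25 ± 0.10, SE, adjusted p = 0.218, edgeR). In *sid-1(tm2700)* it changed by -0.245 ± 0.075 (SE) against wild type. It went the other way in *sid-1(jam80)* and *sid-1(jam86)*, by 0.25 ± 0.08 and 0.31 ± 0.10 (SE) against wild type, and none of these passed. The *sid-1(jam113)* change minus the *sid-1(jam80)* change was -1.05 ± 0.26 (SE) and did not pass (adjusted p = 0.119, edgeR). *drh-1*, *zip-1*, *lin-35* and *sta-1* overlapped between *sid-1(jam113)* and wild type.

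More members were called between wild types of the plate sets than in any comparison that involves a *sid-1* strain with all libraries kept. Between these wild types, 6 of 18 tested members passed edgeR's quasi-likelihood test, where 64.4% of all genes passed. Of the members, 5 were higher in the deletion set (31.0% of all genes) and 1 was lower (33.4% of all genes), and 8 had an unadjusted p under 0.05, where 67.5% of all genes did. The median log2 fold change was 0.39 over the members and -0.035 over all genes. Levels did not overlap for 9 of the 18, against 70.4% of all genes tested.

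*pals-24* stood at 5.16, 8.19 and 5.27 CPM in the deletion set's wild type, against 3.47, 2.41 and 2.82 CPM in that of the nonsense set, without overlap, and was higher by 0.86 ± 0.19 (SE) on the log2 scale (adjusted p = 0.00124, edgeR). *pals-25* was higher by 0.47 ± 0.15 (SE, adjusted p = 0.0124, edgeR), with 3.84, 4.33 and 3.71 CPM in the deletion set's wild type, against 2.6, 2.02 and 2.66 CPM. *pals-31* and *pals-39* were higher by 1.75 ± 0.39 and 1.54 ± 0.47 (SE), and *pals-18* by 0.57 ± 0.23 (SE). The call of *pals-18* was lost with limma voom and with upper-quartile normalization, and that of *pals-4* with DESeq2. *pals-4* was lower, at 0.141, 0.138 and 0.0885 CPM in the deletion set's wild type, against 0.246, 0.232 and 0.291 CPM, by -1.31 ± 0.38 (SE) on the log2 scale. These values are each scaled within a set, and the fold changes come from a fit of both wild types together.

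The same wild types differed in their makeup. In the deletion set's wild type all 5 epidermis markers and all 5 heat stress genes were lower, with median log2 fold changes of -1.46 and -2.24, and of the 5 intestine markers 4 were lower and 1 higher. Of 30 tested major sperm protein genes 23 were lower. Among the other response genes, the ubiquitin ligase genes *skr-4* and *skr-5* and the F-box gene *fbxa-158* were higher, and the ligase genes *cul-6* and *rcs-1* were lower. All 5 regulators outside the family passed, with *sta-1* lower and the other 4 higher. The part of these differences in the *pals* levels was not tested, and growth, RNA preparation and sequencing of a set cannot be told apart. Without replicate 2 of the nonsense set's wild type 3 members passed, and without replicate 1 of the deletion set's wild type 9 passed. Without replicate 2 of the deletion set's wild type 6 passed, with *pals-16* called and *pals-18* not, and the median over the members was 0.13. The share of all genes passing in these fits is not given here, and it was 64.4% with all libraries kept, so these counts show only how the calls moved. *pals-25* and *pals-39* lost their calls without replicate 2 of the nonsense set's wild type, and *pals-18* without that library, replicate 1 of the same wild type or replicate 2 of the deletion set's.

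The previously generated alleles were not tested against the plate sets, since the labels give another culture, extraction, library kit and read type for them, which cannot be told apart here. As a description, 26 of the 38 members had more TPM in both wild-type libraries of that set than in any wild-type plate library, where 29.9% of 21281 genes with reads did. *pals-31* averaged 7.13 TPM in that wild type, against 0.898 TPM in the deletion set's wild type and 0.191 TPM in that of the nonsense set. *pals-26*, from the group of 3 on chromosome III, averaged 1.66 TPM there, against 0.12 and 0.113 TPM in the plate sets in the same order. *pals-32* averaged 4.36 TPM, against 0.356 and 0.127 TPM.

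*pals-25* and *pals-16*, both activators of the response, did not lie above both plate sets in the older wild type. *pals-20*, the other activator, did, on few reads, with a mean of 0.133 TPM, against 0.0491 and 0.0312 TPM in the deletion and nonsense sets. *pals-25* averaged 2.3 TPM in the older wild type, against 3.64 and 2.14 TPM in the wild types of the deletion set and the nonsense set. *pals-16* averaged 0.74 TPM, against 1.17 and 1.29 TPM. *pals-13*, *pals-15*, *pals-21* and *pals-40* were the other members whose mean in the older wild type was below that of a plate set, and all 4 had at most 12 reads in any wild-type library. The ratio of *pals-25* to *pals-22* TPM was 0.383 to 0.983 over all 23 libraries, and *pals-22* was thus the more abundant transcript of the pair in every one. In the older set it averaged 0.635 ± 0.021 in *sid-1(qt9)*, 0.62 ± 0.038 in *sid-1(tm2700)*, 0.611 ± 0.129 in the rescued strain and 0.466 ± 0.117 in wild type (SD, n = 2 each), and only the rescued strain of these 3 overlapped wild type.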

How the data were processed

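The authors trimmed reads with cutadapt and quantified transcripts with salmon (versions not given in the sources used here). Of the deposited values, salmon's estimated counts, which are unscaled and can be fractional, were used for all tests, and the authors' TPM, which adjusts for length and library size, for levels across genes. The deposited lengths entered only the rebuilt counts below. With the Ensembl release 115 annotation (WBcel235), 31176 of 35749 transcripts were found by their identifier and 4485 by the sequence name, 88 had no match, and counts were summed per gene and rounded. The pseudogene *pals-36* was outside the rule. Non-whole estimates (tolerance 0.01) occurred in 5 members, *pals-7*, *pals-11*, *pals-13*, *pals-20* and *pals-37*, so their reads were partly shared with other transcripts.

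Genes were tested where 3 or more libraries of the comparison (2 or more in the older set) exceeded 0.1 CPM. Tests used TMM and edgeR 4.0.16 (R 4.3.3, quasi-likelihood, only the groups compared), p-values were Benjamini-Hochberg adjusted over all genes tested, and the threshold was 0.05. SE is the absolute log2 fold change divided by the square root of F. CPM in the text is TMM-scaled over a set. Alternatives were limma 3.58.1 voom, DESeq2 1.42.0, upper-quartile normalization, no filter, counts rebuilt from TPM and length, a replicate block, TPM for summed levels, and each library left out. The tests were checked on simulated counts. The labels number the replicates and the methods call them biological. They differed beyond counting noise in all 19 pairs (chi-square per degree of freedom 5.00 to 124.1). For the older set, that of the previously generated alleles, the labels state liquid culture and the methods plates.

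Members named are those called, the largest change of each comparison, the regulators, *pals-5* and the 5 highest in TPM. *pals-4* and *pals-14* against the rescued strain, *pals-18*, *pals-19* and *pals-31* outside the comparisons that called them, and *pals-26* and *pals-32* across sets were added after their values were seen. Members and lists were chosen with earlier results of these data known. The list of other response genes held 17 names, of which 5 proved to be *pals* genes and were set aside. Genome and protein sequences were not used here.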

Additional observations from a re-analysis of the deposited data

How the results depend on the processing

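With all libraries kept, the count of called members changed by more than 1.5 times in 1 comparison, *sid-1(tm2700)* against the rescued strain, where DESeq2 gave 0, no filter 2 and rebuilt counts 0, against 1. Of 57 changes of single members, 305 values kept their direction and side of the threshold, 4 lost the threshold (*pals-33* with rebuilt counts, and between wild types *pals-4* with DESeq2 and *pals-18* with limma voom and upper-quartile normalization) and 1 gained it (*pals-4* without filter). With 1 library left out the counts ran from 0 to 3 for *sid-1(jam113)*, 0 to 1 for *sid-1(qt9)*, 0 to 4 for *sid-1(tm2700)* against the rescued strain, 0 to 1 for it against wild type, 3 to 9 between wild types and 0 to 2 for the difference of deletion and nonsense changes. The libraries concerned are named with the results. Single changes near 0 that reversed with 1 library left out ranged as follows. For *sid-1(jam113)*, *pals-17* ran from -0.28 to 0.016, and in the difference from *sid-1(jam80)* from -0.26 to 0.013. For *sid-1(jam80)*, *pals-22* ran from -0.15 to 0.029, *pals-17* from -0.11 to 0.095 and *pals-16* from -0.071 to 0.14. For *sid-1(jam86)*, *pals-25* ran from -0.089 to 0.11 against wild type and *pals-22* from -0.15 to 0.025 against *sid-1(jam80)*. For *sid-1(tm2700)* against the rescued strain, *pals-22* ran from -0.21 to 0.20 and *pals-25* from -0.084 to 0.14. Against wild type, *pals-22* ran from -0.081 to 0.17 in *sid-1(tm2700)* and from -0.15 to 0.26 in the rescued strain. Replicate numbers showed no clear pairing of the samples, since same-numbered deviations correlated from -0.08 to 0.321 and no comparison had every pair above 0.1. The values of *sid-1(jam113)* against wild type were 0.321, 0.113 and -0.074. With 2 libraries per group the values of a comparison are equal by construction, so the check cannot exclude pairing there. With the replicate block the count of called members was the same in 8 of 8 comparisons, and *pals-33* changed by 1.0 (adjusted p = 0.0158, edgeR). The block was not used between wild types or for the difference of changes. Standard errors reached 0.71 (*sid-1(jam113)*), 0.54 (*sid-1(jam80)*) and 1.68 (*sid-1(qt9)*) on the log2 scale. Where a fit without 1 library left a group of the older set with 1, the spread came from the other group alone.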
